A study of Mus musculus with 18 samples.

Results

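AT3 cells, a mouse mammary carcinoma line used as a model of breast cancer, were given A-485 together with IFNγ and compared with cells that received only the DMSO vehicle. A-485 inhibits the catalytic acetyltransferase activity of P300 and CBP. The comparison asks where each gene ended when both treatments acted: above, at or below the untreated level. Libraries were chosen by their labels, which gave 3 with A-485 plus IFNγ and 3 with DMSO, 6 of 18 libraries in all. The inhibitor or vehicle was present for 1 h before recombinant murine IFNγ was added for a further 2 h, and cells were collected at 3 h. The label of A-485 alone gives 1000 nM, and the methods describe this same concentration for the combination. The remaining libraries were IFNγ alone, A-485 alone, A-241 alone (a second P300/CBP inhibitor, 250 nM) and A-241 plus IFNγ, with 3 libraries each. All groups share 1 cell line in culture. The labels describe biological triplicates and the methods technical ones, so p-values measure the spread between these libraries, which may be technical.

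RNA was measured by QuantSeq, a method that reads the 3′ ends of polyadenylated transcripts, and values are read counts per gene. The total was 3417167 to 6145972 counts in the DMSO libraries and 4893251 to 5170974 in those with A-485 plus IFNγ. DMSO replicate 3, the shallowest library, stood apart. The locus Gm42418, which holds a ribosomal RNA repeat, took 20.1% of its counts (Wilson 95% interval 20.1% to 20.2%, for counting error only). This share was 7.11% and 9.33% in the other DMSO libraries and 7.38% to 9.45% with A-485 plus IFNγ. IFNγ replicate 2 was alike, at 23.05% (23.01% to 23.09%). Of 11 epithelial markers, Krt19 and Cldn4 were near 0, with 1 and 7 counts over all 18 libraries, while Krt8, Krt18, Epcam and Cdh1 were among those expressed in all groups, and none of the 9 epithelial markers tested passed the test in either direction. Their summed level was 1734 to 2061 CPM (read counts scaled to the same library total) in DMSO and 1184 to 1355 CPM with A-485 plus IFNγ, and the part of this in the results was not tested. The 10 mesenchymal markers summed to 1270.0 to 1875 CPM in DMSO and 1400.0 to 1477 CPM with A-485 plus IFNγ. Of the 9 tested, 8 were lower in the fit, beside 6056 of all 11964 genes tested, and none was called. The regulators Snai1 and Snai2 had 170 and 166 counts in the DMSO libraries together and 23 and 54 with both treatments (log2 fold changes -2.78 ± 0.90 and -1.65 ± 0.41, edgeR adjusted p = 0.0911 and 0.0264). Their part in the results was not tested. The 11 leukocyte markers summed to 4.895 to 21.1 CPM in DMSO and 4.37 to 20.5 CPM with A-485 plus IFNγ, with the macrophage marker Adgre1 at 0 in every library. The endothelial markers summed to 1.73 to 2.53 CPM and 0.9498 to 2.24 CPM, with Cdh5 and Tek at 0 throughout, and the fibroblast markers to 7.59 to 9.63 CPM and 6.92 to 9.12 CPM, with Lum at 0. In such bulk samples, fewer cells of a type and less RNA per cell cannot be told apart.

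As background, IFNγ binds its receptor and activates the kinases JAK1 and JAK2, which phosphorylate STAT factors. STAT dimers bind GAS sites in promoters and induce IRF1, which binds related sequences that also serve the interferon-stimulated response element (ISRE), and IRF1 then drives a second set of genes for antigen presentation, chemokines and cell-autonomous immunity. P300 and CBP are coactivators that acetylate histones, including lysine 27 of histone H3, at active enhancers and promoters, and genes with short-lived mRNAs and strong enhancers are known to lose expression quickly when they are inhibited.

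The promoters of several genes that ended above DMSO are shown here because they hold the letters of the sequences that STAT and IRF proteins are known to bind. Capitals mark TTCNNNGAA, the GAS letters, which read the same on both strands, and the IRF core, which is GAAA, any 2 bases and GAAA again, on either strand (TTTC, any 2 bases and TTTC on the other). The sequences are from RefSeq (GRCm38.p6), 5′ to 3′ on the gene's strand, and lie upstream of the RefSeq start site. Irf1 and Irf8, which encode IRF transcription factors, held GAS letters. Cxcl10, Gbp2, Ifit1 and Socs1 held the IRF core. Sequences were read out for only part of the immunity-related GTPase family, and members with some of its largest rises were left out. Among the members read, the GAS letters were followed by the IRF core in 4. In these the IRF letters began 11 bases after the GAS letters began. The other members read differed: in Gm12250 IRF letters stood on both sides of the GAS letters, and Irgm1 held IRF letters and no GAS letters in its window. The order of letters in the members left out is not given.
Irf1 (chr11:53769909-53769947, plus strand): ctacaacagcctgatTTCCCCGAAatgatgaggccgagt
Irf8 (chr8:120736172-120736228, plus strand): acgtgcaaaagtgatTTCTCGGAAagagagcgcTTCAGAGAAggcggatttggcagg
Cxcl10 (chr5:92349078-92349117, minus strand): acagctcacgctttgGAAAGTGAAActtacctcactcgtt
Gbp2 (chr3:142620589-142620628, plus strand): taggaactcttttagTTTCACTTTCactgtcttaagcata
Ifit1 (chr19:34640770-34640828, plus strand): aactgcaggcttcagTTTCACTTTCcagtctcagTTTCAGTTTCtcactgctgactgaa
Socs1 (chr16:10785589-10785634, minus strand): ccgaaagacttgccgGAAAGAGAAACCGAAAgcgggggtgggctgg
Igtp (chr11:58199496-58199546, plus strand): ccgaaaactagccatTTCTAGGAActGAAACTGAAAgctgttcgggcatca
Irgm2 (chr11:58214887-58214937, plus strand): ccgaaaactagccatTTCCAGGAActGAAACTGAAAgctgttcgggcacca
Tgtp1 (chr11:48992299-48992349, minus strand): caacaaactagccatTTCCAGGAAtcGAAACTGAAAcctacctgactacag
Tgtp2 (chr11:49064258-49064308, minus strand): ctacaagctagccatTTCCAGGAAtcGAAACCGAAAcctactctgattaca

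Across all genes tested, the fit over all 18 libraries called fewer genes above the untreated level than below it. A gene was called above or below where its log2 fold change passed an adjusted p of 0.01 (edgeR's quasi-likelihood test over all 18 libraries, Benjamini-Hochberg over 11964 genes). By this rule 107 genes ended above DMSO (0.894% of those tested) and 174 below (1.45%), or 281 in all (2.35%). In all 281 the libraries of the groups did not overlap, beside 10.7% of all genes with every A-485 plus IFNγ library above DMSO and 10.5% with every one below. A gene was placed at the untreated level only where it was not called and the 95% interval of its log2 fold change lay within -1 to 1, that is, where a change of 2-fold was outside its interval. This held for 6062 genes (50.7%), and the remaining 5621 genes were undecided, neither called nor estimated closely enough. Of the genes above, 97 changed by at least 2-fold in the fit and 56 by at least 4-fold, with a median log2 fold change of 2.09 (1.91 with the 5 genes that had no count in any DMSO library set to their lower bound). Of the genes below, 156 fell by at least 2-fold and 54 by at least 4-fold, with a median of -1.61. The largest changes were therefore upward: 21 genes above reached 16-fold with those 5 genes at their bound, against 2 genes below. The median over all genes tested was -0.01, and it lay between -0.05 and 0.07 under the alternatives.

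The counts depended on the libraries and terms in the fit. Without both libraries rich in Gm42418, 179 genes were above and 334 below, and with 2 surrogate variables 347 and 543. With only the 6 libraries compared the order was reversed, with 25 genes above and 17 below. Of these, 25 and 16 were also called with all 18 libraries. Without DMSO replicate 3 the counts were 103 above and 153 below, and without A-485 plus IFNγ replicate 3 they were 63 and 107. The other single libraries that moved a count by over 1.5 times were DMSO replicate 2 (71 above without it) and A-485 plus IFNγ replicates 1 and 2 (92 and 103 below without each).

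**Figure D1:**
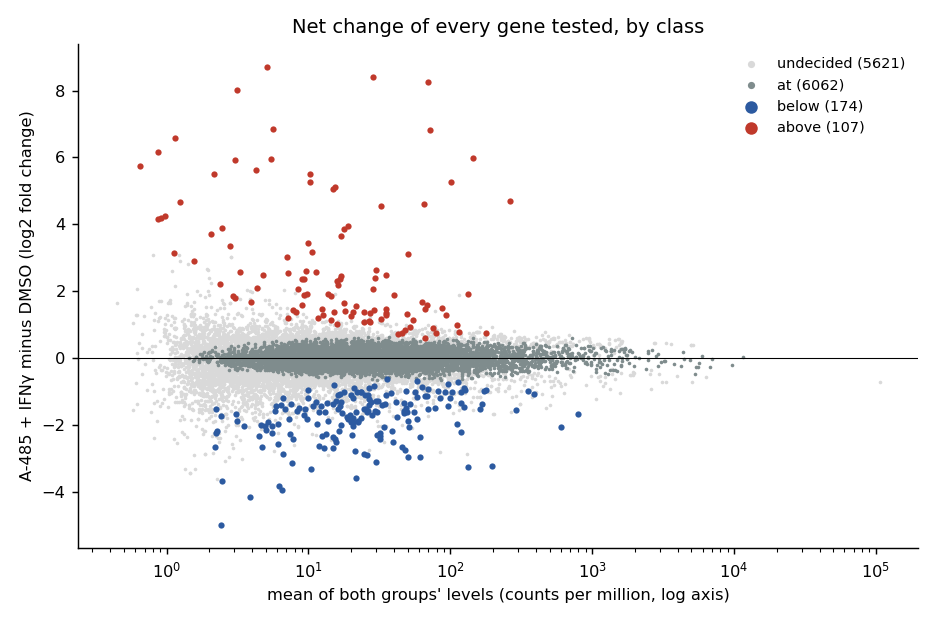
Each point is 1 of 11964 genes, with the mean of both groups' levels (CPM, log axis) on the horizontal axis and the log2 fold change of A-485 plus IFNγ against DMSO on the vertical axis, coloured by class. The 107 genes above reach far higher changes than the 174 genes below, and the 5621 undecided genes lie mainly at low levels.

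The transcription factors at the head of the IFNγ response ended far above DMSO. Irf1 (ENSMUSG00000018899, chr11:53770014-53778374, GRCm38) encodes the factor that relays the IFNγ signal to secondary genes. Its level was 23.4, 23.2 and 11.4 CPM in the 3 DMSO libraries and 474, 589 and 465 CPM with A-485 plus IFNγ, a log2 fold change of 4.70 ± 0.27 (SE, edgeR adjusted p = 7.57e-08). With IFNγ alone the level was 721, 409 and 820.5 CPM. Replicate 2 of IFNγ, rich in Gm42418, was below the libraries with both treatments, and the other IFNγ libraries were above them. The difference between these groups was -0.35 ± 0.26 on the log2 scale (adjusted p = 0.549). Irf8, a partner of IRF1 better known from myeloid cells, was at 0, 0 and 0.691 CPM in DMSO and 11.3, 10.6 and 9.88 CPM with both treatments, a ratio of pooled counts of 73.9-fold (exact 95% counting interval 20.1 to 616). Irf8 was measured at 2.29, 0.191 and 3.95 CPM with A-485 alone. Irf7, an amplifier of interferon responses, rose from 12.6, 10.9 and 5.53 CPM to 27.2, 25.9 and 26.0 CPM (log2 fold change 1.41 ± 0.26, adjusted p = 0.00304), and lost its call in each fit that left out a library with A-485 plus IFNγ (largest adjusted p = 0.0157). Of 7 IRF genes tested, 3 were above, 2 at (Irf9 and Irf3) and 2 undecided, where 0.894% of all genes were above. Irf9, the DNA-binding subunit of the ISGF3 complex, had a 95% interval of -0.56 to 0.43.

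Among genes of the IFNγ receptor, JAK kinases and STAT factors, none of the 12 tested was below and 6 were at, a share near that of all genes (50.7%). Stat2, a subunit of ISGF3, rose by 1.86 ± 0.23 (adjusted p = 8.63e-05), from 7.17, 5.05 and 6.56 CPM to 24.7, 22.8 and 20.3 CPM. The receptor chain Ifngr1 (95% interval -0.02 to 0.76) and the kinase Jak1 (-0.53 to 0.62) were at the untreated level. Of 7 SOCS genes, which encode feedback inhibitors of cytokine receptors, only Socs1 was above. It had 0.422, 0.632 and 0 CPM in DMSO and 18.9, 26.7 and 15.2 CPM with both treatments (log2 fold change 5.51 ± 1.48, adjusted p = 0.00686), and 62.8, 1.19 and 56.0 CPM with IFNγ alone, where replicate 2, rich in Gm42418, was near the DMSO level. The call of Socs1 was lost in each of the 6 fits that left out a library (largest adjusted p = 0.0373), with the replicate number as a block (adjusted p = 0.0161) and with limma-voom (adjusted p = 0.267).

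The chemokines CXCL9, CXCL10 and CXCL11, which draw T cells through the receptor CXCR3, ended above DMSO in 3 of 3 genes (0.894% of all genes). Cxcl9 (chr5:92321347-92328079) had 0.422, 0 and 0 CPM in DMSO and 56.5, 55.8 and 58.9 CPM with A-485 plus IFNγ. The ratio of pooled counts was 399-fold (exact 95% counting interval 110.1 to 3298), and the adjusted p was 1.14e-07 in edgeR. Cxcl10 (chr5:92346638-92348889) went from 0.843, 1.26 and 1.73 CPM to 156, 146 and 123 CPM, a log2 fold change of 6.83 ± 0.49 (adjusted p = 1.14e-07). With IFNγ alone these genes were at 150.1, 97.7 and 177 CPM (Cxcl9) and 299.8, 121 and 249.9 CPM (Cxcl10). For Cxcl10 only IFNγ replicate 2, rich in Gm42418, was not above the libraries with both treatments. Cxcl11 was 0 in every DMSO library and 5.74, 6.11 and 7.03 CPM with both treatments, at least 6.07-fold higher when 3 counts in the shallowest DMSO library are taken as the floor. Its level with IFNγ alone was 3.44, 3.57 and 2.97 CPM, and the difference between the IFNγ groups was 0.92 ± 0.40 (adjusted p = 0.323). Of 11 other chemokines and cytokines tested, none was called above, Il34 was below, Csf1 and Cxcl16 were at and 8 were undecided. In the fit 7 of the 11 were higher, beside 5908 of all 11964 genes tested. Csf1, a macrophage growth factor, rose with IFNγ alone (log2 fold change 0.98, adjusted p = 0.00506) but had 8.99, 9.98 and 8.55 CPM with both treatments against 11.0, 12.9 and 15.9 CPM in DMSO (net interval -0.92 to -0.12). For Csf1 the difference between A-485 plus IFNγ and IFNγ alone was -1.50 ± 0.18 (adjusted p = 0.000555). Il34, another ligand of the same receptor, fell from 22.1, 11.5 and 44.2 CPM to 4.78, 3.26 and 3.61 CPM (-2.70 ± 0.52, adjusted p = 0.00521). The Il34 call was lost without DMSO replicate 3 (adjusted p = 0.0224), in 4 of the other 5 fits without a library, and with the replicate block (adjusted p = 0.0136).

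Both families of interferon-inducible GTPases, which attack the vacuoles of intracellular microbes, ended above DMSO. All 11 immunity-related GTPase genes tested were above, with a median log2 fold change of 5.64 (5.11 with Gm12250 at its lower bound), where 0.894% of all genes were above. Iigp1 was at 5.27, 5.05 and 2.76 CPM in DMSO and 310.0, 254 and 295 CPM with both treatments (5.98 ± 0.29, adjusted p = 8.58e-09). Gm4841 went from 0.843, 0.316 and 0 CPM to 137, 137 and 140.0 CPM (8.25 ± 0.67, adjusted p = 4.46e-08). Igtp (chr11:58199556-58207591) rose from 5.06, 4.42 and 6.22 CPM to 128, 118 and 132 CPM (4.61 ± 0.20, adjusted p = 2.4e-09). With IFNγ alone Igtp was at 249, 289.9 and 277 CPM, and A-485 plus IFNγ was different from it by -1.11 ± 0.18 (adjusted p = 0.00467). Gm12250 (chr11:58187739-58189012) was 0 in the DMSO libraries and 8.42, 11.4 and 10.8 CPM with both treatments, at least 9.86-fold higher, while IFNγ alone gave 45.6, 74.5 and 46.5 CPM (difference between the IFNγ groups -2.43 ± 0.37, adjusted p = 0.00516). F830016B08Rik had 0.211, 0 and 0 CPM in DMSO and 13.6, 9.57 and 10.3 CPM with both treatments, a ratio of 156-fold (exact 95% counting interval 27.6 to 6199). Iigp1, Gm4841 and F830016B08Rik were among the members whose promoter sequences were not read out. Tgtp1 and Tgtp2 gave nearly the same counts in each library (32.2, 26.9 and 31.3 CPM and 31.4, 25.3 and 30.2 CPM with both treatments) and, as near-identical copies, may share reads, so their separate values are uncertain. Irgm1 and Irgm2 had the smallest changes of the family (log2 fold changes 3.66 ± 0.29 and 3.87 ± 0.56). Ifi47, with a ratio of 59.0-fold (exact 95% counting interval 16 to 492), lost its call without DMSO replicate 2 (adjusted p = 0.0104). Igtp shares exon bases with Irgm2, Ifi47 with Olfr56, and Tgtp1 with Gm12185, and reads on shared bases were counted for each gene.

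Of 5 guanylate-binding protein genes tested, 4 were above and Gbp4 was undecided, where 0.894% of all genes were above. Gbp2 (chr3:142620602-142638008) had the smallest adjusted p of all genes (edgeR, 1.75e-09): its level was 4.43, 4.26 and 6.91 CPM in DMSO and 189, 195 and 204 CPM with both treatments, a log2 fold change of 5.27 ± 0.21. Gbp7 rose by 2.47 ± 0.26 (adjusted p = 2.36e-05), from 5.90, 3.32 and 6.91 CPM to 26.4, 24.2 and 35.7 CPM, with 60.1, 77.8 and 70.5 CPM under IFNγ alone. Gbp3 rose by 1.21 ± 0.23 (adjusted p = 0.00394), from 6.11, 7.11 and 7.95 CPM to 15.1, 15.3 and 18.4 CPM. Under IFNγ alone Gbp3 stood at 50.5, 77.8 and 44.1 CPM, and the difference between A-485 plus IFNγ and IFNγ alone was -1.81 ± 0.21 (adjusted p = 0.000417). Gbp2b was 0 in DMSO and 1.91, 1.02 and 2.28 CPM with both treatments, at least 1.68-fold higher. Gbp4, at 0.211, 0 and 0.346 CPM and 1.53, 1.43 and 1.33 CPM, did not pass (adjusted p = 0.147). The calls of Gbp3 and Gbp2b were lost in 5 and 4 of the 6 fits that left out a library (largest adjusted p = 0.0278 and 0.0193).

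Genes of antigen presentation were called above DMSO only in part, and several of those not called were undecided. Tap1, a subunit of the transporter that carries peptides into the endoplasmic reticulum, rose from 6.53, 10.1 and 11.7 CPM to 40.6, 50.7 and 57.9 CPM (2.41 ± 0.25, adjusted p = 2.49e-05), with 72.3, 119.8 and 70.8 CPM under IFNγ alone. Psmb9, an immunoproteasome subunit that shares exon bases with Tap1, rose by 2.50 ± 0.40 (adjusted p = 0.000721). Of 8 genes of peptide transport and loading, 2 were above (Tap1 and Tapbpl), 3 were at (Pdia3, Canx and Calr) and 3 were undecided. In the fit 5 of the 8 were higher, beside 5908 of all 11964 genes tested, and 0.894% of all genes were above. The chaperone Calr was at 766, 692 and 957 CPM in DMSO and 622, 692 and 716 CPM with both treatments. Tap2 was at 0.211, 0.947 and 1.38 CPM in DMSO, 29.3, 9.83 and 7.69 CPM with IFNγ alone and 1.15, 1.63 and 2.66 CPM with both treatments, and its net change did not pass (adjusted p = 0.587). Of 5 genes of the immunoproteasome and the PA28 activator, Psmb9 and Psmb10 were above and 3 were undecided. All 5 were higher in the fit, with a median log2 fold change of 1.09. In the MHC class I list 1 of 6 genes was above, Nlrc5, the transactivator of class I genes, with a ratio of 9.68-fold (exact 95% counting interval 3.03 to 49.4). The other 5 were undecided, and all 6 were higher in the fit, with a median log2 fold change of 0.80. B2m, the light chain of class I molecules, had 54.4, 63.9 and 42.5 CPM in DMSO and 88.2, 90.6 and 101 CPM with both treatments and did not pass (log2 fold change 0.79 ± 0.20, adjusted p = 0.0361). H2-K1 was likewise undecided (0.81 ± 0.34, adjusted p = 0.253). With the replicate block Tapbpl, Psmb10 and Nlrc5 lost their calls (adjusted p = 0.0176, 0.0205 and 0.0135), as they did in 5, 5 and 6 of the 6 fits without a library (largest adjusted p = 0.0684, 0.0501 and 0.0565).

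Cd274, which encodes the checkpoint ligand PD-L1, had 0, 0.158 and 0 CPM in DMSO and 4.98, 4.48 and 3.42 CPM with A-485 plus IFNγ, a ratio of pooled counts of 59.9-fold (exact 95% counting interval 10.4 to 2401), with an edgeR adjusted p of 3.5e-05. With IFNγ alone it was at 21.5, 18.8 and 12.9 CPM, above the range with both treatments, and the difference was -2.04 ± 0.27 (adjusted p = 0.00178). Cd274 was the sole gene above among 9 checkpoint ligands tested. Another 6 were at the untreated level, among them Cd47, the ligand that restrains phagocytosis (interval -0.71 to 0.33), Lgals3, Nectin2 and Pvr. Lgals9, which rose with IFNγ alone (1.37, adjusted p = 0.00308), was undecided in the net comparison (0.62 ± 0.25).

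Antiviral genes that interferons of several types induce gave the most genes above of any list, in the longest list (34 genes). Of 30 tested, 14 were above, 2 at, 14 undecided and none below, where 0.894% of all genes were above. The median log2 fold change of the list was 1.30. Ifit1, which binds viral RNA, went from 1.90, 3.00 and 3.11 CPM to 55.5, 65.6 and 66.5 CPM (4.55 ± 0.22, adjusted p = 3e-09). It was at 51.9, 48.3 and 48.6 CPM with IFNγ alone and at 7.59, 5.15 and 6.27 CPM with A-485 alone, a rise with A-485 alone of 1.25 (adjusted p = 0.00975). Tor3a was the other gene of this list that rose with A-485 alone (1.16, adjusted p = 0.0055), and its net change was 1.66 ± 0.20 against 0.91 with IFNγ alone. Ifit3 (3.94 ± 0.43), Ifit3b (3.44 ± 0.43), the ubiquitin ligase Trim21 (3.02 ± 0.32), Cmpk2 (2.55 ± 0.36) and Rsad2, which encodes viperin (2.29 ± 0.35), were also above, with adjusted p between 1.49e-05 and 0.000721. Isg15, a ubiquitin-like modifier, was 66.0, 159 and 99.9 CPM in DMSO and 146, 173 and 184 CPM with both treatments and did not pass (adjusted p = 0.443). Bst2 and Ifi35 were at the untreated level. Of 6 genes of ADP-ribosylation, 4 were above, beside the same 0.894% of all genes. Parp14 led them, from 11.4, 9.95 and 9.67 CPM to 107, 69.0 and 95.2 CPM (3.12 ± 0.19, adjusted p = 6.28e-08), with 105, 142 and 99.5 CPM under IFNγ alone. Dtx3l, a ubiquitin ligase that pairs with PARP9, rose by 1.91 ± 0.23 and Parp10 by 1.88 ± 0.22, with adjusted p = 0.000103 and 6.71e-05. Parp12 rose by 1.30 ± 0.27 (adjusted p = 0.00935) and lost its call in 5 of the 6 fits without a library (largest adjusted p = 0.0695). Dtx3l shares exon bases with Parp9, which was undecided.

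**Figure D2:**
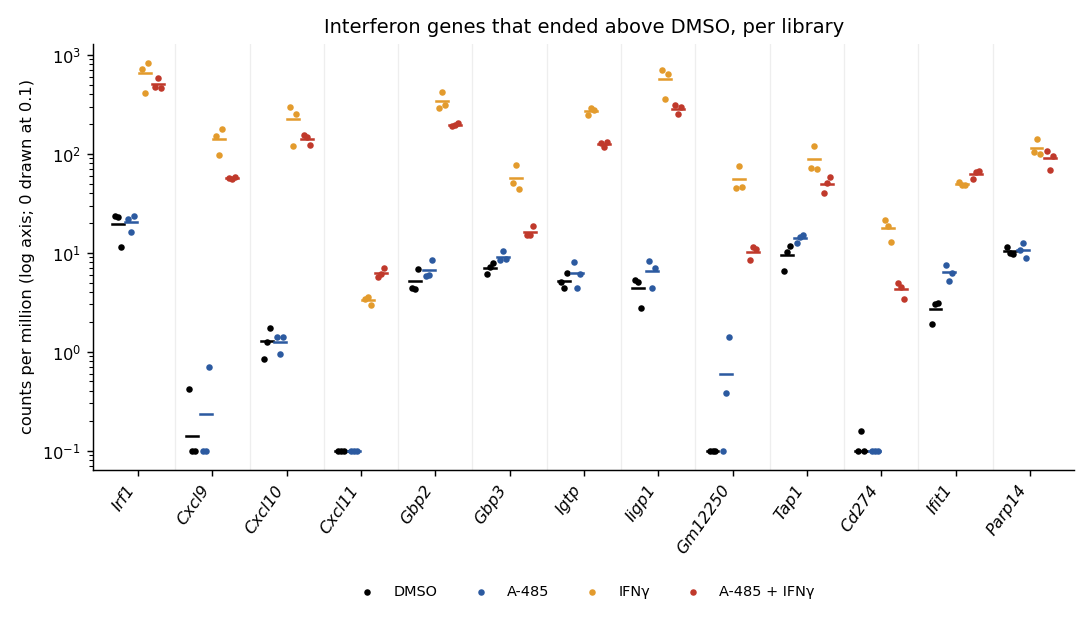
Levels of 13 interferon genes in CPM (log axis, 0 drawn at 0.1), with a point per library and a bar at the group mean for DMSO, A-485, IFNγ and A-485 plus IFNγ. All A-485 plus IFNγ libraries lie above all DMSO libraries for each gene shown. They lie below the IFNγ libraries for genes such as Gbp3 and Cd274 but not for Ifit1 or Cxcl11. For Irf1 and Cxcl10 they lie above IFNγ replicate 2, rich in Gm42418, and below the other IFNγ libraries.

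Outside the interferon lists, 2 of 17 immediate early transcription factors were above, where 0.894% of all genes were above. Jun, a subunit of AP-1, had 89.2, 79.3 and 85.0 CPM in DMSO and 150.4, 135 and 149 CPM with both treatments (0.78 ± 0.13, adjusted p = 0.00112), and 209, 243 and 200.04 CPM with IFNγ alone. Csrnp1 rose by 2.60 ± 0.34 (adjusted p = 0.000115). Egr1 and Fos were at the untreated level, with intervals of -0.10 to 0.70 and -0.87 to 0.60.

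**Figure D3:**
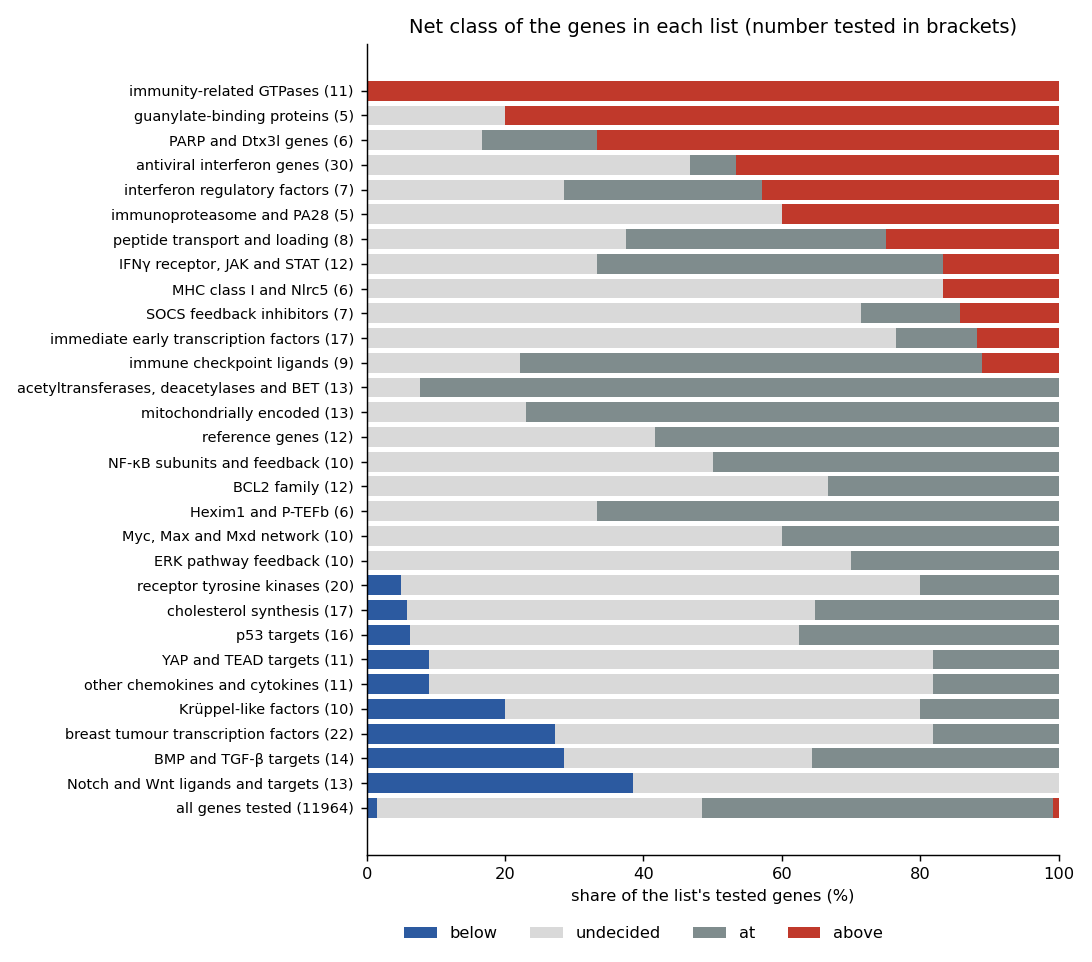
Share of the tested genes of each list (horizontal axis, %) that were below, undecided, at or above in the net comparison, with the number tested in brackets and all 11964 genes in the lowest bar. The 11 immunity-related GTPase genes were all above, 12 of 13 acetyltransferase, deacetylase and BET genes were at, and 5 of 13 Notch and Wnt genes were below.

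The share of a list at the untreated level was read beside the 50.7% of all genes tested. Of 13 genes for acetyltransferases, deacetylases and BET proteins, 12 were at and none was called. Ep300 was at 24.03, 24 and 21.1 CPM in DMSO and 23.9, 22.4 and 27.9 CPM with both treatments (interval -0.22 to 0.42). Crebbp, which encodes CBP, was at 83.1, 70.1 and 82.6 CPM and 91.9, 78.0 and 99.5 CPM (interval -0.11 to 0.50). Neither group was separate from the other for these genes. Of 13 mitochondrially encoded genes 10 were at, of 12 reference genes 7, and of 10 NF-κB genes 5, and none of these was called. The shares of the reference and NF-κB genes lay near that of all genes. Hexim1, an inhibitor of the elongation factor P-TEFb, was at by this rule (interval 0.21 to 0.79), although all 3 libraries with both treatments (30.4, 32.4 and 29.8 CPM) were above the DMSO libraries (21.1, 22.3 and 22.1 CPM) and A-485 alone raised it (0.84, adjusted p = 0.00406). Actb, a common reference gene, was undecided, with 5545, 4352 and 12988 CPM in DMSO, where replicate 3 was the highest library, and 5029, 4779 and 5609.8 CPM with both treatments. The size of this class rested on the width allowed: with intervals within -0.58 to 0.58, 1886 genes were at.

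Below DMSO, the lists with the most members called were those of Notch and Wnt signalling, of BMP and TGF-β targets and of transcription factors of breast tumours. Of 13 Notch and Wnt genes tested, 5 were below and none above, with a median log2 fold change of -1.46 (1.45% of all genes were below). The receptor Notch1 (chr2:26457903-26516663) was at 53.8, 43.3 and 60.5 CPM in DMSO and 10.7, 9.78 and 12.9 CPM with both treatments, a log2 fold change of -2.23 ± 0.20 (adjusted p = 6.42e-06). Its level was 14.3, 16.03 and 10.7 CPM with A-485 alone and 33.2, 49.2 and 35.1 CPM with IFNγ alone. Jag1, a Notch ligand (chr2:137081456-137116644), was at 11.6, 16.9 and 12.4 CPM in DMSO, 8.47, 7.25 and 6.04 CPM with A-485, 6.39, 5.36 and 4.02 CPM with IFNγ and 1.91, 1.22 and 1.52 CPM with both. Its net change of -3.12 ± 0.44 passed (adjusted p = 0.000237), while neither single treatment did (-0.91, adjusted p = 0.292, for A-485 and -1.37, adjusted p = 0.0955, for IFNγ). The departure of the Jag1 net change from the sum of the single changes was -0.84 ± 0.59 (95% interval -2.09 to 0.39) and was not called. Hey1, a target of Notch, fell from 16.9, 25.6 and 23.5 CPM to 4.78, 5.70 and 3.23 CPM (-2.26 ± 0.39, adjusted p = 0.00214), and its call was lost without A-485 plus IFNγ replicate 1 or 3 (largest adjusted p = 0.0209). Tle3, a corepressor of both pathways, fell by 2.88 ± 0.26 (adjusted p = 4.61e-06) with 4.59, 4.20 and 5.11 CPM under A-485 alone and 6.89, 4.28 and 6.46 CPM with both treatments, against 41.9, 37.7 and 50.8 CPM in DMSO. The ligand Wnt7b was at 119.5, 101 and 88.5 CPM in DMSO and 31.6, 39.5 and 37.8 CPM with both treatments (-1.51 ± 0.17, adjusted p = 5.71e-05), and it was lower with A-485 alone, at 26.3, 23.9 and 32.5 CPM. Lfng, which encodes a glycosyltransferase that modifies Notch receptors and stood in no list, fell from 10.8, 10.4 and 35.6 CPM to 1.34, 2.04 and 2.09 CPM (-3.32 ± 0.63, adjusted p = 0.00357). DMSO replicate 3 was the highest of its libraries, and without it the change was -2.51 and the call was lost (adjusted p = 0.0112), as it also was without any of the A-485 plus IFNγ libraries (largest adjusted p = 0.0283). Notch1 shares exon bases with 0610009E02Rik and Gm13568, and strand was not set in the counting.

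Among 14 BMP and TGF-β genes, 4 were below and 5 at. Id4, an inhibitor of basic helix-loop-helix factors, went from 33.3, 49.3 and 53.9 CPM to 5.55, 7.33 and 5.32 CPM (-2.90 ± 0.27, adjusted p = 6.76e-06). Id2, of the same family, went from 286, 223 and 214 CPM to 92.6, 84.3 and 104 CPM (-1.36 ± 0.19, adjusted p = 0.000327), whereas Id1 was at (interval -0.85 to 0.17) and Id3 was undecided. Smad7, which restrains TGF-β receptors, fell by 1.98 ± 0.25 and the ligand Tgfb2 by 1.31 ± 0.16, with adjusted p = 9.41e-05 and 7.56e-05.

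Of 22 transcription factors of breast tumours, 6 were below, 4 at and 12 undecided, where 1.45% of all genes were below. All 22 had a fitted change below 0, as had 6056 of all 11964 genes tested. The median of the 22 was -0.997. Ehf, an epithelial ETS factor (chr2:103263433-103303278), was at 84.9, 94.7 and 148 CPM in DMSO and 12.8, 15.9 and 13.1 CPM with both treatments (-2.96 ± 0.25, adjusted p = 3.56e-06), with 18.2, 21.2 and 20.9 CPM under A-485 alone. Runx1 fell from 46.0, 42.2 and 55.3 CPM to 20.5, 14.5 and 19.2 CPM (-1.40 ± 0.20, adjusted p = 0.000321). The Iroquois factors Irx3 and Irx5 fell by 1.49 ± 0.20 and 1.43 ± 0.23 (adjusted p = 0.00023 and 0.000983), and Irx5 lost its call without A-485 plus IFNγ replicate 1 (adjusted p = 0.0112). Trps1, a GATA-type repressor, fell by 0.97 ± 0.13 (adjusted p = 0.000222). Gata3, the luminal regulator, fell from 66.8, 65.7 and 94.3 CPM to 38.3, 35.0 and 38.2 CPM (-1.02 ± 0.20, adjusted p = 0.00521). The Gata3 call was lost without DMSO replicate 3 (-0.82, adjusted p = 0.0246), without any of the A-485 plus IFNγ libraries (largest adjusted p = 0.0262) and with the replicate block (adjusted p = 0.0109). Of 10 Krüppel-like factors, Klf4 and Klf13 were below and Klf5 and Klf6 at. Klf4 went from 242, 159.8 and 663 CPM in DMSO to 32.7, 35.0 and 46.2 CPM (-3.22 ± 0.53, adjusted p = 0.00255). DMSO replicate 3 was the highest Klf4 library, and the change without it was -2.39 (adjusted p = 0.00807), while leaving out any A-485 plus IFNγ library ended the call (largest adjusted p = 0.0217). Klf13 was at 71.9, 57.9 and 46.0 CPM and 24.9, 21.6 and 24.1 CPM (-1.32 ± 0.19, adjusted p = 0.000337).

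The single largest falls among well-counted genes had other roles. Depp1 (chr6:116650609-116652794), a FOXO target, went from 15.6, 14.1 and 7.26 CPM to 0.383, 1.22 and 0.760 CPM (-3.96 ± 0.56, adjusted p = 0.00023). Trib2 (chr12:15791727-15816922), a Tribbles pseudokinase, was at 276, 194 and 249 CPM in DMSO, 70.1, 91.2 and 99.3 CPM with IFNγ, 73.4, 59.9 and 92.2 CPM with A-485 and 23.9, 23.2 and 27.5 CPM with both (-3.26 ± 0.21, adjusted p = 1.14e-07). For Trib2 the libraries with both treatments were below those of every other group of these 4. The Wnt coactivator Bcl9l (-2.94 ± 0.36), Lrrc75b (-3.11 ± 0.45) and 1700017B05Rik (-2.78 ± 0.32) were also among the 12 largest, with adjusted p between 7.01e-05 and 0.000581. DMSO replicate 3 was the highest library for each of these genes. Without it their changes were smaller, at -2.46, -2.59 and -2.33, and the calls remained.

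Ephb3, a receptor for ephrins, was the sole gene below among 20 receptor tyrosine kinases. It was at 141, 99.6 and 67.4 CPM in DMSO, 25.0, 29.5 and 30.3 CPM with IFNγ, 24.4, 30.3 and 37.4 CPM with A-485 and 19.3, 21.6 and 19.4 CPM with both (-2.36 ± 0.22, adjusted p = 1.24e-05), and each single treatment also passed (-1.87 for IFNγ and -1.75 for A-485). Sqle, an enzyme of sterol synthesis, was the sole gene below among 17 cholesterol genes (-0.92 ± 0.14, adjusted p = 0.000759). Of the 17, 16 had a fitted change below 0, beside 6056 of all 11964 genes tested. Ankrd1, a YAP target, fell from 61.1, 103 and 75.0 CPM to 39.04, 33.8 and 35.0 CPM (-1.15 ± 0.23, adjusted p = 0.00653), while it was at 97.6, 97.9 and 63.7 CPM with A-485 alone and 114, 70.9 and 78.2 CPM with IFNγ alone. The departure of the Ankrd1 net change from the sum of the single changes was not called. Gdf15, a stress cytokine in the p53 list, went from 18.3, 13.9 and 42.8 CPM to 3.64, 5.70 and 4.94 CPM (-2.36 ± 0.45, adjusted p = 0.00521). The calls of Ankrd1 and Gdf15 were lost without DMSO replicate 3 (adjusted p = 0.012 and 0.0206), with the replicate block (adjusted p = 0.0123 and 0.0117) and in 4 and 3 of the other 5 fits without a library (largest adjusted p = 0.0441 and 0.0371). Myc was not called: its level was 8.85, 10.4 and 21.8 CPM in DMSO and 3.64, 1.63 and 4.18 CPM with both treatments, a log2 fold change of -2.07 ± 0.48 (adjusted p = 0.0171). No gene of the Myc, ERK feedback, P-TEFb, NF-κB or BCL2 lists was called in either direction.

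**Figure D4:**
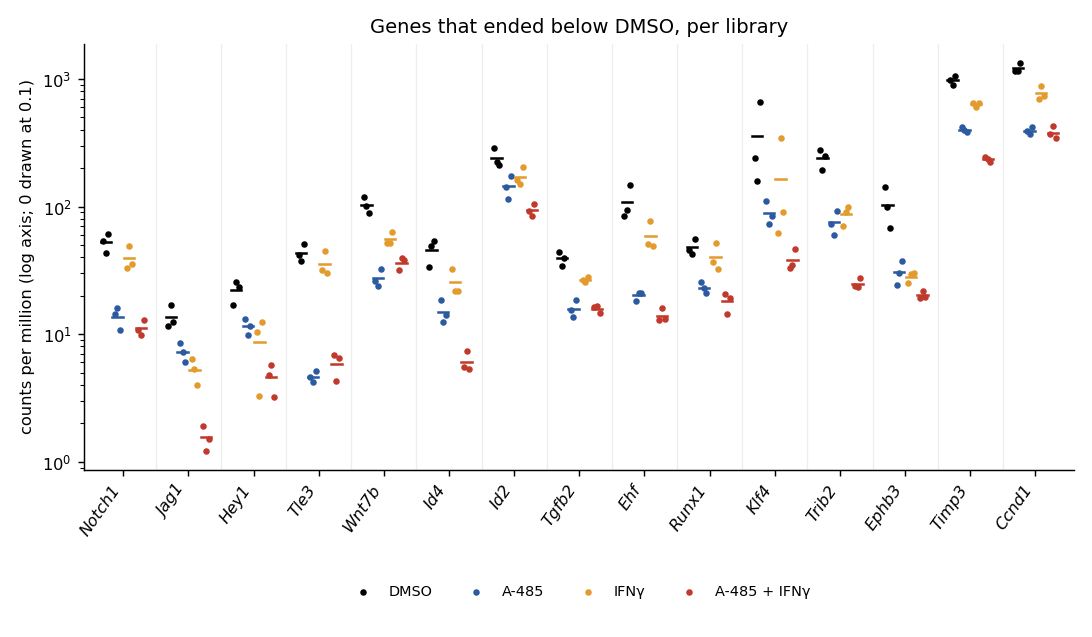
Levels of 15 genes that ended below DMSO in CPM (log axis), with a point per library and a bar at the group mean for DMSO, A-485, IFNγ and A-485 plus IFNγ. Trib2, Jag1, Id4 and Timp3 were lowest with both treatments, whereas Tle3, Tgfb2 and Ccnd1 had ranges with both treatments that overlap those of A-485 alone.

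Other genes that ended below DMSO were picked after their values were seen. Ccnd1, the G1 cyclin D1, was at 1163, 1155 and 1325 CPM in DMSO and 373, 425 and 343 CPM with both treatments (-1.68 ± 0.14, adjusted p = 1.51e-06). Timp3, an inhibitor of matrix metalloproteinases, was at 977, 894 and 1057 CPM and 242, 237 and 225 CPM (-2.06 ± 0.12, adjusted p = 5.73e-08). Kcnn4, a calcium-activated potassium channel, went from 97.0, 80.5 and 70.8 CPM to 14.4, 12.6 and 9.88 CPM (-2.75 ± 0.17, adjusted p = 5.73e-08). For Cebpb, a C/EBP factor, the change with both treatments was -1.33 ± 0.19 (adjusted p = 0.000442), from 76.5, 74.4 and 52.5 CPM to 26.8, 24.8 and 29.3 CPM. The change was 0.21 with IFNγ alone and -0.26 with A-485 alone, neither of which passed (adjusted p = 0.886 and 0.62). The departure of the Cebpb net change from the sum of the single changes was not called either.

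How the net state was put together was read from each single treatment in the same fit. These comparisons share libraries with the net comparison, so counts and values stand side by side and no overlap is drawn from them. IFNγ alone raised 144 genes (1.2%) and lowered 12 (0.1%). A-485 alone raised 5 (0.0418%) and lowered 74 (0.619%). Against IFNγ alone, A-485 plus IFNγ was higher for 2 genes (0.0167%) and lower for 64 (0.535%), and against A-485 alone it was higher for 89 (0.744%) and lower for 7 (0.0585%). The departure of the net change from the sum of both single changes on the log2 scale was tested as an interaction. It was called for 0 genes in either direction by edgeR, with 257 genes higher and 242 lower at an unadjusted p under 0.05, while DESeq2 called 3 higher and 7 lower. The smallest adjusted p was 0.0257, for Gbp3 among the genes named here. It was picked after its value was seen, and its interaction term was -2.19 ± 0.31, below the sum of the single changes. The median standard error of this term was 0.42, against 0.30 for the net change. For Trib2 the single changes were -1.46 with IFNγ and -1.67 with A-485, and the net change was -3.26. For Irf1 they were 5.05 and 0.06, with 4.70 net, and for Gbp3 3.03 and 0.38, with 1.21 net.

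A-241 plus IFNγ, at its own dose of 250 nM, gave 107 genes above DMSO (0.894%) and 411 below (3.44%). As the doses of the inhibitors differ, the values are only set side by side. The log2 fold changes against DMSO for A-485 plus IFNγ and for A-241 plus IFNγ were 4.70 and 4.18 for Irf1, 6.83 and 4.51 for Cxcl10, 1.21 and 0.10 for Gbp3, and -1.40 and -3.27 for Runx1.

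The motif letters shown for the promoters above were counted in windows from 250 bases before to 50 bases after each RefSeq start site. A window was matched for 83 of the 107 genes above, 119 of the 174 below and 4565 of the 6062 at. GAS letters were in a window of 24.1% of the genes above, 9.24% of those below and 8.19% of those at, beside 8.16% of all 8283 matched genes tested. The IRF core was in a window of 39.8% of the genes above (33 genes), 4.20% of those below and 3.02% of those at, beside 3.73% of all. Over all 32851 windows of the same length, 8.30% held the GAS letters and 3.44% the IRF core. These are shares of letters in a fixed window and do not show that a factor bound there.

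**Figure D5:**
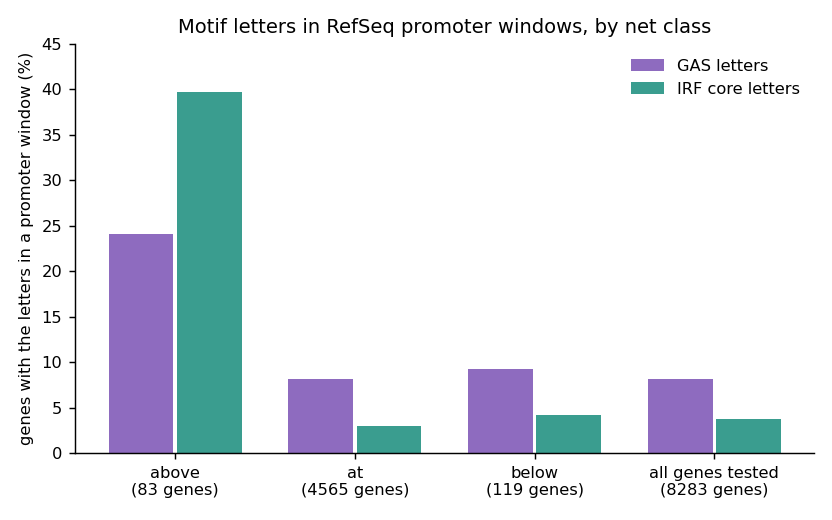
Share of genes (vertical axis, %) with the GAS or IRF core letters in a RefSeq promoter window, for the genes above, at and below and for all matched genes tested. The genes above stand at 24.1% for GAS and 39.8% for the IRF core, while the other classes lie near the shares of all genes.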

How the data were processed

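The authors trimmed 75-base single-end QuantSeq reads with cutadapt 1.7, aligned them to GRCm38 (mm10) with HISAT2 2.1.0 and counted them on exons with featureCounts, per the methods and the submitters' processing notes, with reads over several genes counted for each and no strand option. The deposited values are raw counts of 43629 genes, and 0 columns were left unused. Identifiers were joined to GENCODE vM21 (97.5% matched), whose release is not given in the sources used here for the authors' counting. Identifiers without a match held 0.403% of counts and were kept.

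Counts were filtered with filterByExpr by group, scaled by TMM factors and fitted with edgeR 4.0.16 (glmQLFit, glmQLFTest) in R 4.3.3, with a mean per group over all 18 libraries. Alternatives used DESeq2 1.42.0, limma 3.58.1 (limma-voom, which the authors used) and sva 3.50.0. Tables and figures were made in Python 3.11.15 with pandas 2.3.3 and matplotlib 3.10.9. CPM values use TMM-scaled totals. Intervals are Wald intervals with the quasi-likelihood variance. A fold against a group with no count in any library is a lower bound set by 3 counts in its shallowest library, and with 1 to 3 counts it is a ratio of pooled counts with an exact interval that covers counting error only. The scripts were tested on simulated data with 1 spread for all genes, no replicate effect and no library that stood apart. There 11% of genes changed by 2-fold and 87% of those changed by 4-fold were called. As the real libraries differ in these respects, the shares need not hold for them. Totals were 3417167 to 7856830 counts a library, at which 3 counts are 0.382 to 0.878 CPM.

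Genes were named by rule: the 12 largest rises and 12 largest falls by fitted log2 fold change among called genes with non-overlapping groups and a mean of at least 50 counts in 1 of them, the called members of each list with its 4 genes of highest level, and interferon genes called for IFNγ alone. Some genes that the rule takes are given only within counts or are not reported here. The comparison, the lists and their members were chosen with earlier results of these data known. Same-numbered DMSO and A-485 plus IFNγ libraries deviated from their group means together (r over genes of 0.123, 0.212 and 0.306 for numbers 1, 2 and 3), each best matched with its own number. The main fit holds no term for the replicate number, so its counts and p-values leave this pairing out. A replicate block was fitted as an alternative and gave 83 genes above and 134 below.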

Additional observations from a re-analysis of the deposited data

How the results depend on the processing

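None of 99 called genes followed through the alternatives, the called genes named here among them, changed sign in a fit that held it. No gene called above or below was called in the opposite direction. The median over all genes did change sign, from -0.01 to 0.07 with total counts, 0.03 with limma-voom and with 2 surrogate variables, and near 0 with the replicate block. The counts of genes above and below were 51 above with at least 10 counts in every library, 191 and 334 at an adjusted p under 0.05, 179 and 334 without both libraries rich in Gm42418, 347 and 543 with 2 surrogate variables, 25 and 17 with only the libraries compared, and 298 below with DESeq2. Leaving out a library in turn gave 63 to 103 genes above, 92 to 162 below and 4773 to 6937 at. The lowest counts above were without A-485 plus IFNγ replicate 3 (63) and DMSO replicate 2 (71), and those below without A-485 plus IFNγ replicate 1 (92), replicate 2 (103) and replicate 3 (107). With intervals within 0.58, 1886 genes were at. The interaction was called higher for 5 genes and lower for 21 with 2 surrogate variables, higher for 3 and lower for 7 with DESeq2, lower for 1 with total counts, for 3 without both libraries rich in Gm42418 and for 2 at an adjusted p under 0.05, and for 0 to 0 genes with any library left out. The cause of these shifts was not tested, beyond the fewer genes or libraries that some settings use. With the replicate block 83 genes were above, 134 below and 5855 at, and 11 of the 99 genes lost their call, each with its adjusted p beside it in the text, while no other call among the 99 changed. With limma-voom, 100 genes were above and 166 below, and 7 of the 99 lost their call: Socs1 (adjusted p = 0.267), Il34 (0.0195), Lfng (0.0144), Gdf15 (0.0134), Ifi47 (0.0124), Nlrc5 (0.0108) and Parp12 (0.0102). Nlrc5 also lost it with DESeq2 (0.017). Other scalings (RLE, upper-quartile factors or total counts) ended, in at least 1 case, the calls of Tapbpl, Psmb10, Parp12, Irf7, Nlrc5, Ankrd1, Pdgfa and Trib3, and no filter on low counts for Jun (0.0125), Pdgfa and Trib3. Requiring 10 counts in every library left 61 of the 99 genes in the fit and ended the calls of Parp12 and Trib3. Cxcl9, Cxcl10 and Cd274 were among those not tested with it. With only the libraries compared, 63 of 97 lost their call. Depth limits the result at low counts: 3 counts in DMSO replicate 3 are 0.878 CPM.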

Other observations

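Other families of interferon-inducible genes, picked after the called genes were seen, were also above DMSO. Of 8 genes of the Ifi200 family tested, which encode sensors and regulators that bind nucleic acid, 7 were above (0.894% of all genes). Ifi203 went from 7.38, 10.3 and 6.91 CPM to 52.2, 45.8 and 57.0 CPM (log2 fold change 2.63 ± 0.26, edgeR adjusted p = 1.52e-05), and Ifi211 from 47.4, 51.5 and 39.7 CPM to 127, 124 and 137 CPM (1.48 ± 0.13, adjusted p = 4.61e-06). Genes of this family lie close together and resemble each other, so reads may be split between them. Of 4 Schlafen genes, 3 were above, with Slfn2 at 11.2, 9.32 and 12.1 CPM in DMSO and 53.6, 63.1 and 62.9 CPM with both treatments (2.47 ± 0.20, adjusted p = 1.51e-06). The pattern receptor Tlr3 rose by 1.18 ± 0.20 (adjusted p = 0.00152), Tmem173, which encodes STING, by 1.36 ± 0.20 (adjusted p = 0.000569) and the adaptor Myd88 by 1.57 ± 0.26 (adjusted p = 0.00141). Apart from these families, 39 genes for small nucleolar RNAs named Snora or Snord were tested. Of these, 1 was above, 3 were at and 35 were undecided, where 0.894% of all genes were above. The gene above was Snora26, at 9.06, 11.8 and 12.4 CPM in DMSO and 43.4, 49.3 and 45.6 CPM with both treatments (adjusted p = 0.000195). Reads over several genes were counted for each and strand was not set, so its counts may hold reads of another transcript, which was not tested.

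The genes below included ligands and growth factors that stood in no list. Vegfa fell from 29.7, 28.3 and 37.0 CPM to 16.1, 14.9 and 15.8 CPM (-1.02 ± 0.18, adjusted p = 0.00256), Kitl from 29.9, 35.5 and 33.2 CPM to 12.8, 10.6 and 8.74 CPM (-1.62 ± 0.21, adjusted p = 0.000145) and Pdgfa from 34.6, 36.3 and 23.5 CPM to 15.9, 15.9 and 14.8 CPM (-1.03 ± 0.21, adjusted p = 0.00756). Of 6 ephrin genes tested, Efnb1 and Efnb2 were below and 4 were undecided, and the call of Efnb2 was lost with the replicate block (adjusted p = 0.0123) and in 4 of 6 fits without a library (largest adjusted p = 0.0312). Of 3 Tribbles genes, Trib1 and Trib2 were below (-1.49 ± 0.21 and -3.26 ± 0.21), whereas Trib3 was above (0.99 ± 0.21, adjusted p = 0.00971). The calls of Trib3 and Pdgfa were lost with the replicate block (adjusted p = 0.0205 and 0.0179) and in 5 of 6 fits without a library (largest adjusted p = 0.0657 and 0.0404). The call of Vegfa was lost in 4 of those fits, among them that without DMSO replicate 3 (largest adjusted p = 0.0136), and that of Myd88 without A-485 plus IFNγ replicate 3 (adjusted p = 0.0127). The vitamin D receptor Vdr was at 149.9, 138 and 298 CPM in DMSO and 37.5, 43.4 and 46.7 CPM with both treatments (-2.20 ± 0.28, adjusted p = 0.000155), with DMSO replicate 3 the highest library.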
